A study of Mus musculus with 15 samples.

Results

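The cytosolic ribosomal protein genes encode the proteins that, with ribosomal RNA, form the small (40S) and large (60S) subunits of the ribosome in the cytoplasm. They were taken as every gene in the platform annotation whose symbol is Rpl or Rps followed by a number, with an optional final letter, together with Rplp0, Rplp1, Rplp2 and Rpsa, and without the Rps6k kinases and pseudogenes. This gave 61 of 16593 measured genes, 23 of the 40S subunit and 38 of the 60S subunit. Gene expression was measured with Illumina MouseRef-8 v2 bead arrays in cerebella of C57BL/6 mice at postnatal day 1 (P1). The 8 WT samples came from Cxcr4 flox/flox littermates without Cre, and the 7 KO samples from Cxcr4 flox/flox; Sox1-Cre mice, so that both groups carried the floxed alleles and KO animals alone carried Cre. Sox1-Cre is active in the neural tube of the embryo. The dissected tissue also holds cells of other origin, such as meninges and blood. Whether these keep a functional Cxcr4 was not measured. Neither the labels nor the study's methods give the number of animals per sample. The comparison asks how the loss of the chemokine receptor Cxcr4 in the nervous system alters gene expression in the newborn cerebellum. The family was taken up with its KO and WT values on these same arrays known, so the KO and WT values below are a description and not independent evidence of a direction.

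Every translating cell needs ribosomal proteins in nearly equal amounts, and their mRNAs are among the most abundant of any tissue. Many of these mRNAs begin with a C followed by a run of pyrimidines, the terminal oligopyrimidine tract, through which mTORC1 signalling controls their translation, and their promoters are known for pyrimidine-rich start sites and for binding sites of ETS family factors such as GABP. In the newborn cerebellum, granule cell progenitors of the external layer divide rapidly, and dividing cells are known for a high demand for new ribosomes. In a whole cerebellum, more cells of a type and more RNA per cell cannot be told apart.

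Cxcr4 checked the labels: its log2 signal was between 8.80 and 9.79 on the WT arrays and between 6.45 and 6.89 on the KO arrays, with no overlap. All log2 signals are given on a scale where the median probe of each array is at 6.84, which is close to the background of these arrays. Other features of the arrays moved with genotype or with array number. Xist, the RNA of the inactive X chromosome, had a log2 signal of 8.10 to 8.57 on WT arrays 1 to 4, 7 and 8 and on KO array 7, and of 6.20 to 6.46 on the others, where the Y-linked Eif2s3y was high. The sex of the animals is not in the labels, and within arrays 1 to 4 genotype and sex cannot be told apart. The choroid plexus gene Ttr reached a log2 signal of 15.5 to 15.9 on WT arrays 4, 6 and 8 and KO arrays 2, 3 and 5. All 8 measured genes of the meninges marker list had a lower mean in KO, with a median log2 difference of -0.88, and their mean was lowest on KO arrays 6 to 8, at -1.17 to -2.02 relative to the mean of all 15 arrays. Arrays numbered 1 to 4 and 5 to 8 differed in many genes of both genotypes. This division is known from earlier results of these data, and the labels do not give the BeadChip of an array.

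The annotated start regions of 6 members are shown because these genes recur in the comparisons below. They illustrate pyrimidine runs of different length, and that of Rps10 also holds the ETS-type letters ccggaag. Each stretch holds 45 bases before the annotated start and 20 bases from it, 5′ to 3′ on the strand of the gene, from RefSeq on GRCm38.p6. Capitals mark the longest run of C and T that touches the 20 bases on either side of the start.
Rpl13a: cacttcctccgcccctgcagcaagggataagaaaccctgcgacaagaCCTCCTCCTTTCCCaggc
Rpl7a: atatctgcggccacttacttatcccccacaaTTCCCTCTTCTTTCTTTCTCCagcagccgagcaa
Rpl27: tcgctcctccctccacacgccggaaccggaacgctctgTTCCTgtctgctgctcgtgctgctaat
Rps25: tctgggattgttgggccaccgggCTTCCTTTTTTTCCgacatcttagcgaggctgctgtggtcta
Rps10: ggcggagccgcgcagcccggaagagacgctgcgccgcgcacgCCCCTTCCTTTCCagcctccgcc
Rps15a: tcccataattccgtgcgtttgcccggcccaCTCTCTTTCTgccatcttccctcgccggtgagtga
The stretches lie at chr7:45128726-45128790 on the minus strand for Rpl13a, chr2:26910762-26910826 on the plus strand for Rpl7a, chr11:101442200-101442264 on the plus strand for Rpl27, chr9:44407669-44407733 on the plus strand for Rps25, chr17:27635225-27635289 on the minus strand for Rps10 and chr7:118116128-118116192 on the minus strand for Rps15a. The run was 14 bases long in Rpl13a and Rps25, 21 in Rpl7a, 13 in Rps10, 10 in Rps15a and 5 in Rpl27. Rpl10, Rps13 and Rpl39, also named below, had runs of 4, 6 and 9 bases and are not shown. In Rpl7a and Rps10 the run crosses the start. In Rps10 the letters ccggaag stand upstream of the run.

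Of the 61 members, 52 had an entry of 300 bases around the start, 250 before it and 50 after it. A run of at least 8 C or T near the start was present in 26 of 52 members and in 23.7% of all 27025 genes in the table. The annotated start was a C followed by 4 or more C or T in 11 members (21.2%), against 3.01% of all genes. The ETS-type letters CCGGAAG, on either strand, occurred in 21 members (40.4%) and in 9.93% of all genes, and the letters CTTTCC, which can lie within a pyrimidine run, in 27 members (51.9%) and 29.3%. All 4 features were thus more frequent among the members than among all genes. These are matches of letters, not measured binding sites.

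Most members were bright. The signal of 53 members was at least 1 log2 unit above the array median, and 39 of them had a mean log2 signal of at least 13. The remaining 8, namely Rpl14, Rpl17, Rpl6, Rplp2, Rps23, Rpl39l, Rpl3l and Rpsa, had probes with a mean log2 signal between 6.08 and 7.06, at or near background, so that their differences between groups carry little information. For Rpl3l, a paralog of Rpl3 used in striated muscle, and Rpl39l, a testis paralog of Rpl39, a signal near background is a property of this tissue or of the probe, which were not told apart. The others encode proteins of every ribosome, and whether their dim signal comes from the probes was not tested. A bead array probe can also bind transcripts of the many processed pseudogenes of this family.

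No member passed the threshold between KO and WT. In the limma fit of all 16593 genes, at an adjusted p (Benjamini-Hochberg) of 0.05, 0 of 61 members were called in either direction, while 0.127% of all genes were called, 0.0482% as higher and 0.0783% as lower in KO. The lowest adjusted p of a member was 0.344, for Rpl27. After quantile normalization, which gives all arrays the same distribution of signals, again 0 members were called, against 0.163% of all genes, and the lowest adjusted p was 0.354, for Rpl7a. At an unadjusted p under 0.05, 9 members were higher in KO and 0 lower, where 3.06% and 2.63% of all genes lay. After quantile normalization these counts were 6 and 0, against 3.39% and 3.54%.

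The differences were small and mostly of one sign. The log2 difference, KO minus WT, was positive for 52 of 61 members, against 57.5% of all genes, and for 46 after quantile normalization, against 51.1%. Its median over the members was 0.089, a fold of 1.06, and its range was -0.15 to 0.27. Over all genes the median was 0.015. Since 39 of the 61 members had a mean log2 signal of at least 13, the 258 genes outside the family at that level are a closer reference than all genes. The other members were dimmer, and a comparison at the same brightness is given below. Of those 258 genes, 63.6% had a positive difference, with a median of 0.027. After quantile normalization the median was 0.046 for the members, -0.015 for those bright genes, of which 42.6% were positive, and 0.002 for all genes. The size of the family's median thus depended on the choice of normalization. The sign of the reference genes' median turned, while that of the members did not. After quantile normalization all arrays hold the same signals, so bright members and bright reference genes do not move independently.

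**Figure D1:**
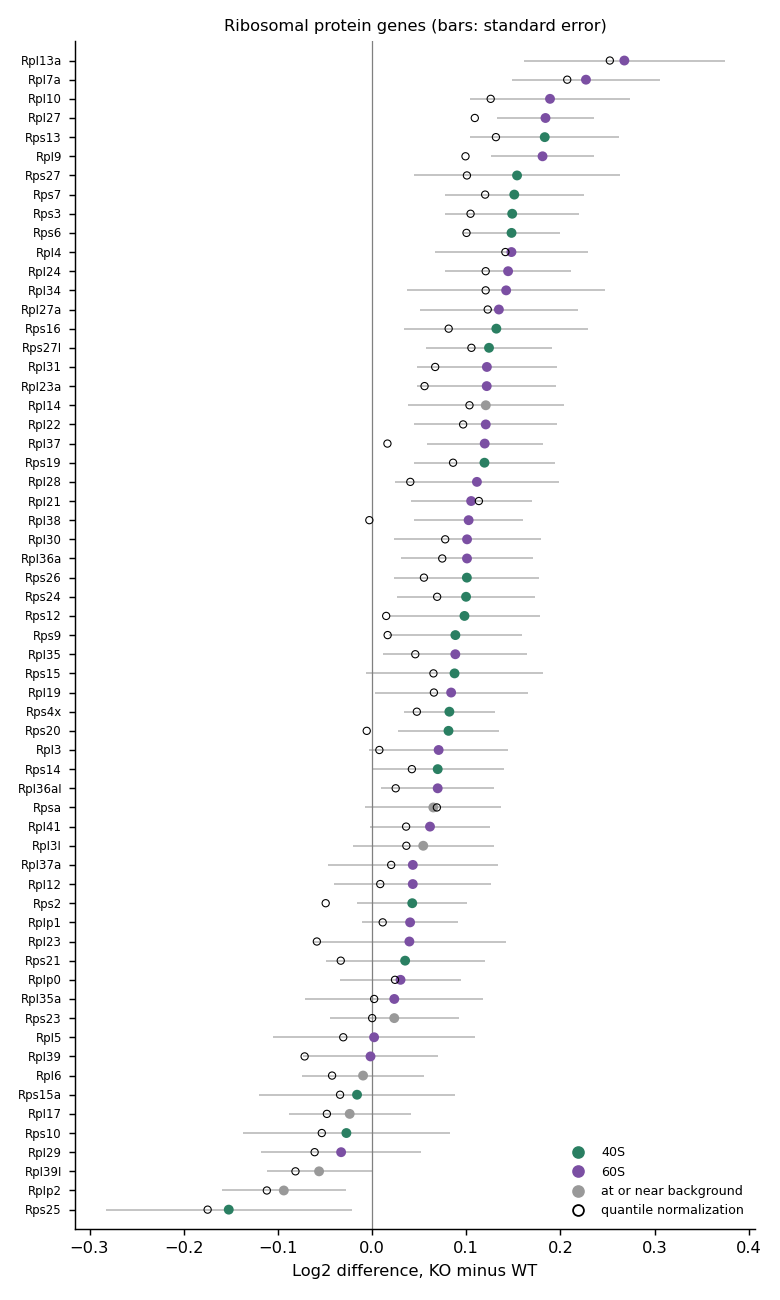
Log2 difference in signal, KO minus WT, for each of the 61 members, ordered by size, under median scaling (filled points, coloured by subunit, bars are limma standard errors) and under quantile normalization (open circles). Differences run from -0.15 for Rps25 to 0.27 for Rpl13a, most points lie right of 0, and the open circles lie mostly to the left of the filled points.

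The genes of the 2 subunits had similar medians, whose order turned with the normalization. The median log2 difference was 0.089 for the 23 genes of the 40S subunit, 20 of them positive, and 0.095 for the 38 genes of the 60S subunit, 32 of them positive. Quantile normalization gave medians of 0.055 and 0.039. The difference between the subunits was not tested. Without the 8 members near background the medians were 0.098 over 21 and 0.10 over 32 genes. The acidic stalk proteins, which recruit elongation factors to the large subunit, were among the least different: Rplp0 had a log2 difference of 0.030, Rplp1 of 0.040, and Rplp2 is near background. Diamond-Blackfan anaemia is an inherited human red cell failure caused by loss of 1 copy of a ribosomal protein gene. Of the members known from it, 11 were measured and 10 had a positive difference, with a median of 0.10. The 53 members above background had 48 positive differences and the same median of 0.10.

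Averaged over the 61 members, the log2 signal of each array relative to the mean of all 15 was -0.086, -0.13, -0.11 and -0.13 on WT arrays 1 to 4 and 0.079, 0.031, -0.030 and 0.067 on WT arrays 5 to 8. The KO arrays 2 to 4 had -0.026, -0.085 and -0.079, and the KO arrays 5 to 8 had 0.12, 0.15, 0.15 and 0.080. The groups overlapped over all arrays, with a WT mean of -0.038 ± 0.088 (SD, n = 8) and a KO mean of 0.044 ± 0.10 (SD, n = 7). Within each array set, however, every KO array lay above every WT array by this mean of 61 members. The margins were narrow. KO array 3 lay at -0.085 and WT array 1 at -0.086, and KO array 8 at 0.080 and WT array 5 at 0.079. Without the 8 members near background the order did not hold in either set. Over the other 53 members KO array 3 lay at -0.099 and WT array 1 at -0.096. KO array 8 lay at 0.083 and WT array 5 at 0.11. Under this scaling the gap between the array sets exceeded that between the genotypes. The difference of the family means was 0.082 over all arrays, 0.050 in arrays 1 to 4 and 0.088 in arrays 5 to 8.

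After quantile normalization the order within the sets was lost for the mean of all 61 members as well. The family mean was -0.019, -0.042, -0.023 and -0.057 on WT arrays 1 to 4 and 0.008, -0.025 and 0.001 on KO arrays 2 to 4. It was 0.015, 0.015, -0.075 and 0.029 on WT arrays 5 to 8 and 0.035, 0.084, 0.046 and 0.011 on KO arrays 5 to 8. KO array 3 now lay below WT arrays 1 and 3, and KO array 8 below WT arrays 5, 6 and 8. The group means were -0.020 ± 0.037 (SD, n = 8) and 0.023 ± 0.035 (SD, n = 7), a difference of 0.042, slightly above the SD within a group.

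**Figure D2:**
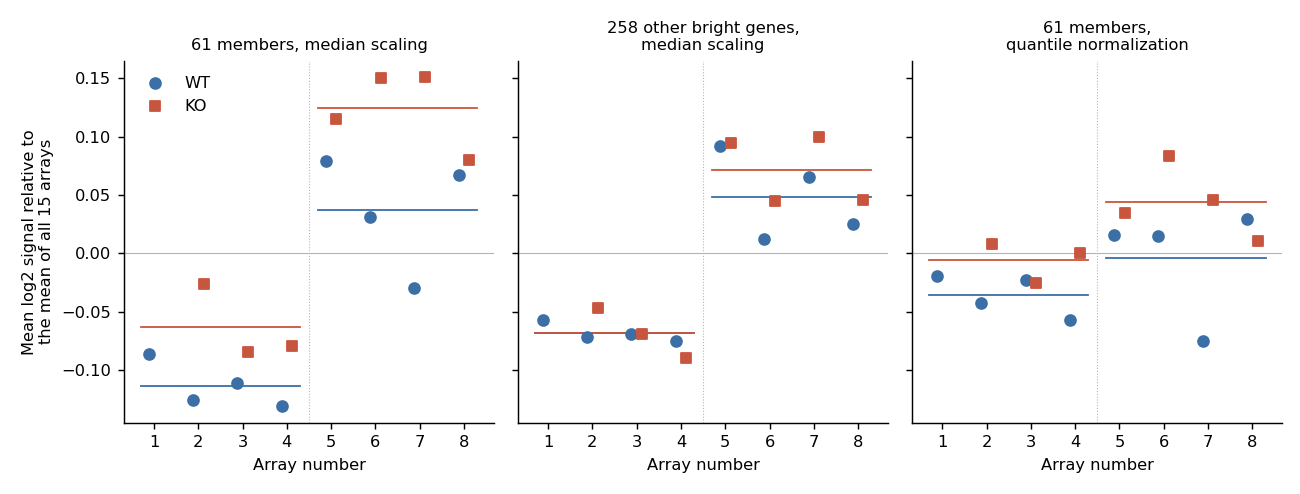
Mean log2 signal per array, relative to the mean of all 15 arrays, against array number for WT (circles) and KO (squares), with lines at the mean of each group in arrays 1 to 4 and 5 to 8. The left panel shows the 61 members under median scaling, from -0.13 to 0.15, the middle panel the 258 bright genes outside the family, and the right panel the members after quantile normalization, where the step between the array sets shrinks and the groups overlap within both sets.

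The family mean was also read beside other measures of the arrays. In arrays 5 to 8, where both Xist levels occur in both genotypes, the arrays with low Xist had 0.079 and 0.031 in WT and 0.12, 0.15 and 0.080 in KO. Those with high Xist had -0.030 and 0.067 in WT and 0.15 in KO. Under median scaling KO lay above WT at either Xist level in this set, for the mean over all 61 members. The margin was near 0 at the low level, and the high level held KO array 7 alone on the KO side. After quantile normalization KO array 8, low in Xist, lay at 0.011, below WT arrays 5 and 6 at 0.015. With Xist as a covariate under median scaling the family mean difference was 0.061, and with Ttr it was 0.080. The KO arrays 6 to 8, low in meninges markers, held 0.15, 0.15 and 0.080, and KO array 5, whose mean of meninges markers was -0.18, held 0.12. The granule cell progenitor list had a positive difference for 10 of 10 genes, with a median of 0.079, but 5 of these genes were above background and 9 were positive after quantile normalization. Its mean per array ran from -0.088 to 0.011 in WT and from -0.009 to 0.15 in KO. Of that list 1 gene was called higher in KO, Barhl1, a homeobox factor of these progenitors, with a log2 difference of 0.50 and an adjusted p of 0.014 in limma. All 3 measured genes of the blood list had a lower mean in KO, with a median of -0.28, as had 3 of 4 endothelial genes, with a median of -0.23 and 2 of them at an unadjusted p under 0.05. The endothelial mean was -0.29 to -0.083 on KO arrays 5 to 8 and -0.16 to 0.23 over the WT arrays. Of 5 astroglial genes 3 had a lower and 2 a higher mean, by up to 0.41, with a median of -0.060. Gdf10, a Bergmann glia gene, was called lower, with a log2 difference of -0.78 and an adjusted p of 0.00016 in limma. Of 6 Purkinje cell genes, 4 above background, 3 had a positive difference. Their mean was -0.035 in arrays 1 to 4 and 0.096 in arrays 5 to 8 in WT, and -0.25 and 0.12 in KO. For 5 microglia and macrophage genes, 2 above background, the mean fell between these sets. It went from 0.13 to -0.079 in WT and from 0.20 to -0.20 in KO. Of 4 oligodendrocyte lineage genes 3 had a positive difference, with a median of 0.043. The part of meningeal, blood, endothelial, astroglial, granule cell or other cell content in the family's difference was not tested.

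Rpl27, a 60S protein whose gene is mutated in some human cases of Diamond-Blackfan anaemia, was the single member with all 7 KO arrays above all 8 WT arrays, a pattern found in 0.0783% of all genes. No member had all KO arrays below all WT arrays, as 0.0663% of all genes had. Its log2 signal in WT had a lowest value of 14.17, a median of 14.23 and a highest of 14.32, and in KO 14.33, 14.45 and 14.53. The gap between the groups was narrow, since KO array 3 at 14.33 lay just above WT array 8 at 14.32. The log2 difference was 0.18 ± 0.052 (SE), a fold of 1.14, with an adjusted p of 0.344 in limma. After quantile normalization the difference was 0.11, and the groups overlapped, with WT up to 14.39 and KO from 14.31. Within arrays 1 to 4 it was 0.12 and within arrays 5 to 8 it was 0.23.

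Rpl9, a 60S protein near the base of the stalk, was separated by genotype within both array sets, as was Rpl27, against 0.181% of all genes, and no member was separated in the other direction, against 0.151%. Its log2 signal was 15.12 to 15.24 on WT arrays 1 to 4 and 15.24 to 15.46 on KO arrays 2 to 4. On arrays 5 to 8 the WT values were 15.12 to 15.31 and the KO values 15.38 to 15.46. The gap was near 0 in the first set. The log2 difference was 0.18 ± 0.055 (SE) and fell to 0.10 after quantile normalization, where of the members only Rpl27 was separated within both sets with KO higher, against 0.205% of all genes, and 0 with KO lower, against 0.187%. Rps6, the 40S protein that S6 kinases phosphorylate downstream of mTORC1, differed by 0.15 ± 0.051 (SE), with WT from 13.67 to 13.82 and KO from 13.78 to 13.96, and 5 of 7 KO arrays above all WT arrays. Rpl9 and Rps6 lie outside the rule for named genes and were chosen after their values were seen.

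Rpl13a had the largest difference of the family. This 60S protein is also known in human myeloid cells for silencing translation of inflammatory mRNAs. Its log2 signal had a lowest value of 10.35, a median of 10.51 and a highest of 10.85 in WT, and 10.48, 10.92 and 11.15 in KO. The KO arrays fell into 2 levels: arrays 2 to 4 lay at 10.48 to 10.54, among the WT values, and arrays 5 to 8 at 10.92 to 11.15, above all WT arrays. The log2 difference was 0.27 ± 0.11 (SE), a fold of 1.20, with an adjusted p of 0.737 in limma. It was 0.093 in arrays 1 to 4 and 0.37 in arrays 5 to 8, and the test of this interaction gave an unadjusted p of 0.028 and an adjusted p of 0.436, where 9.97% of all genes had an unadjusted p under 0.05.

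Rpl7a, a 60S protein of a family that binds kinked RNA, had the next largest difference. Its log2 signal was 11.87, 12.11 and 12.29 at the lowest, median and highest WT array and 12.04, 12.39 and 12.48 in KO. Only KO arrays 3 and 4 lay within the WT range. The log2 difference was 0.23 ± 0.078 (SE), a fold of 1.17, with an adjusted p of 0.593 in limma. It kept nearly this size in arrays 1 to 4 at 0.20, in arrays 5 to 8 at 0.22, and after quantile normalization at 0.21.

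Rps13, a 40S protein that contacts the large subunit, had a log2 difference of 0.18 ± 0.079 (SE), with 4 of 7 KO arrays above all WT arrays. Its log2 signal in WT had a lowest value of 13.62, a median of 13.73 and a highest of 13.96, and in KO 13.71, 14.06 and 14.19. As for Rpl13a, the KO arrays 5 to 8 lay above all WT arrays and the KO arrays 2 to 4 among them. Its adjusted p in limma was 0.789.

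At the other end stood Rps25, a 40S protein that yeast can lack and that some viral mRNAs need to start translation. Its log2 signal in WT had a lowest value of 11.94, a median of 12.27 and a highest of 12.68, and in KO 11.56, 12.22 and 12.41. KO arrays 3 and 4, at 11.56 and 11.67, lay below all other arrays, while the other 5 KO arrays lay within the WT range. The log2 difference was -0.15 ± 0.13 (SE), with an adjusted p of 0.986 in limma. It was -0.34 within arrays 1 to 4 and -0.039 within arrays 5 to 8.

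The other members above background with a negative sign differed by less than their error. Rps15a, which binds the RNA of the small subunit early in assembly, had a log2 difference of -0.016 ± 0.10 (SE). This mean hides opposite values in the 2 array sets, -0.26 within arrays 1 to 4 and 0.19 within arrays 5 to 8. Its interaction with array set had an unadjusted p of 0.026 and an adjusted p of 0.424 in limma, the lowest of the family. WT arrays 1 and 2 were at 11.76 and 11.59, and KO arrays 3 and 4 at 11.07 and 11.14. Rps10, a 40S protein of the subunit's head, differed by -0.027 ± 0.11 (SE), Rpl29 of the 60S subunit by -0.033 ± 0.085 (SE), and Rpl39, which lines the exit tunnel, by -0.0016 ± 0.071 (SE). Each of these 3 had overlapping groups, with a WT and a KO median within 0.1 of each other. For Rps10, Rpl29, Rpl39 and Rps15a the KO median was the higher, opposite to the sign of the mean difference.

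**Figure D3:**
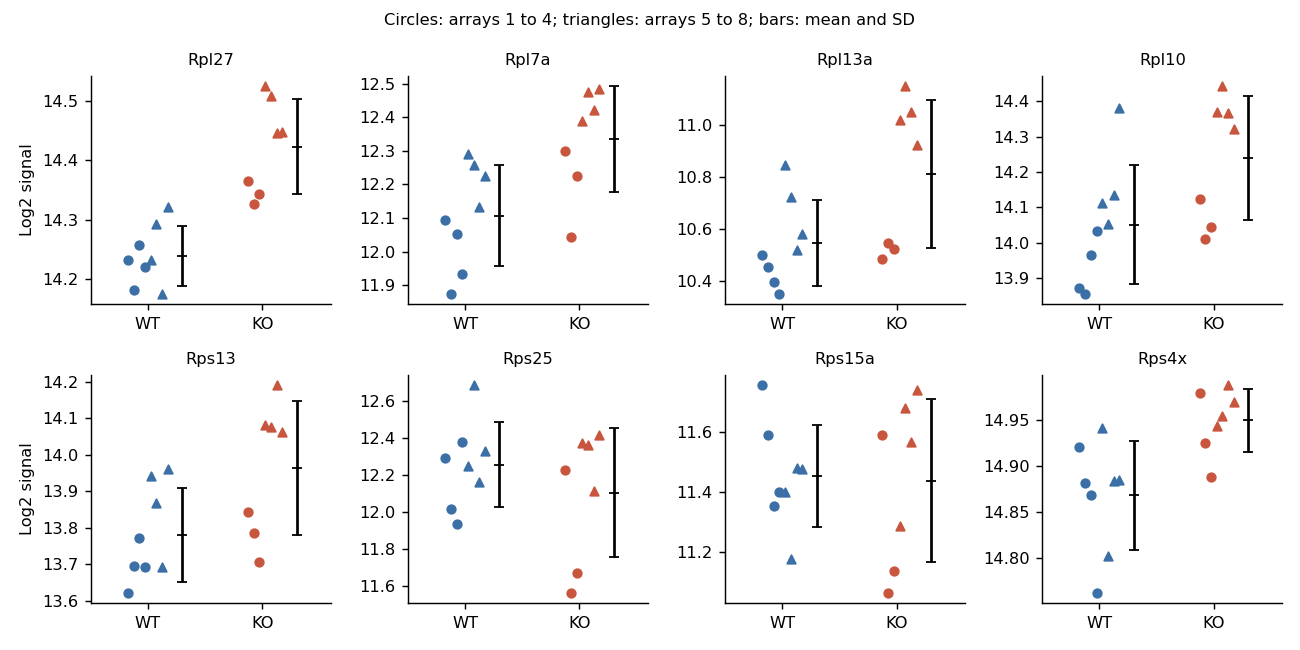
Log2 signal per array of 8 members, by genotype, with circles for arrays 1 to 4, triangles for arrays 5 to 8 and bars for the group mean and SD. In Rpl27 all KO arrays lie above all WT arrays, in Rpl13a and Rps13 the KO triangles lie above all other points of the panel, and in Rps25 2 KO circles lie below every other array; each panel has its own range.

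Of the 4 members on the X chromosome, 3 had a positive difference, with a median of 0.091, against 0.089 for the 57 autosomal members. Rpl10, a late-joining 60S protein near the site of peptide bond formation, lies at chrX:74270816-74273135 (GRCm38.p6). Its log2 signal in WT had a lowest value of 13.86, a median of 14.04 and a highest of 14.38, and in KO 14.01, 14.32 and 14.44. The log2 difference was 0.19 ± 0.085 (SE), with an adjusted p of 0.826 in limma, and a single KO array lay above all WT arrays. Rps4x, a 40S protein with a Y-linked copy in human but not in mouse, was among the steadiest members, with 14.76 to 14.94 in WT and 14.89 to 14.99 in KO and a log2 difference of 0.082 ± 0.049 (SE). Rpl36a, of the 60S subunit, differed by 0.10 ± 0.071 (SE). After quantile normalization the medians of the X-linked and autosomal members were 0.061 and 0.042. Under median scaling they were 0.098 and 0.066 in arrays 1 to 4 but 0.075 and 0.077 in arrays 5 to 8. The difference between X-linked and autosomal members was not tested.

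Paralogs with a symbol ending in l had signs like their partners where both were bright. Rpl36al, an autosomal copy of Rpl36a, differed by 0.070, and its partner by 0.10. Rps27l, a paralog of Rps27 known as a p53 target, differed by 0.12, and Rps27 by 0.15. Rps27 followed the array sets, with a difference of 0.36 between arrays 5 to 8 and 1 to 4, and Rps27l did so less, with 0.050; this contrast was not tested between the genes. Rpl3, of the peptidyl transferase centre, differed by 0.071 between KO and WT, and its partner Rpl3l and the Rpl39 partner Rpl39l were at background.

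Several probes measured 14 of the members, and the family's differences were checked between them. The largest gap was for Rps19, the gene most often mutated in Diamond-Blackfan anaemia, where the bright probe gave a log2 difference of 0.12 and a probe close to background gave -0.10. For Rpl29 the probes gave -0.033 and 0.073, and for Rpl38 0.10 and, with a dimmer probe well above background, -0.022, so that the sign of these genes rests on the probe used. For Rps9 the probes gave 0.089 and 0.002. For Rpl23 the 3 probes above background gave 0.040, 0.13 and 0.099. No member had probes more than 0.3 apart.

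Under median scaling the step between arrays 1 to 4 and 5 to 8 was larger than the difference between the genotypes. With genotype in the model, 30 of 61 members were called higher in arrays 5 to 8 in limma and 0 lower, against 16.3% and 4.45% of all genes and, among the bright genes outside the family, 32.6% higher. The family mean difference was 0.17 and the median 0.16, against a median of 0.13 in the bright genes outside the family. The largest differences were 0.40 for Rpl34, 0.38 for Rpl23, 0.37 for Rpl13a and Rps10, and 0.36 for Rps27. For Rpl34, a 60S protein, the log2 signal was 13.07 to 13.13 on WT arrays 1 to 4 and 13.38 to 13.59 on WT arrays 5 to 8, and 13.17 to 13.30 and 13.51 to 13.76 on the KO arrays of these sets. The sets did not overlap in either genotype for this gene. Among the members above background, the median difference between the sets was 0.22 over the 21 genes of the 40S subunit and 0.19 over the 32 of the 60S subunit.

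The size of this step depended on the scaling, and it was no longer the larger of the 2 differences under other scalings. The family mean differed by 0.013 between the sets and 0.082 between KO and WT without scaling, by 0.034 and 0.060 with scaling on the bright genes outside the family, and by 0.040 and 0.042 after quantile normalization. After quantile normalization 5 members were called higher in arrays 5 to 8, namely Rpl13a, Rpl34, Rps10, Rps15 and Rps16, and 1 lower, Rpl21, against 4.38% and 5.3% of all genes. The 95th percentile of the probe signals lay 4.68 to 4.76 log2 units above the array median on arrays 1 to 4 and 4.79 to 4.93 above it on arrays 5 to 8, in both genotypes, so that bright genes as a class sat higher in the second set under median scaling. The labels do not say what distinguishes the sets, and its part in the step was not tested.

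**Figure D4:**
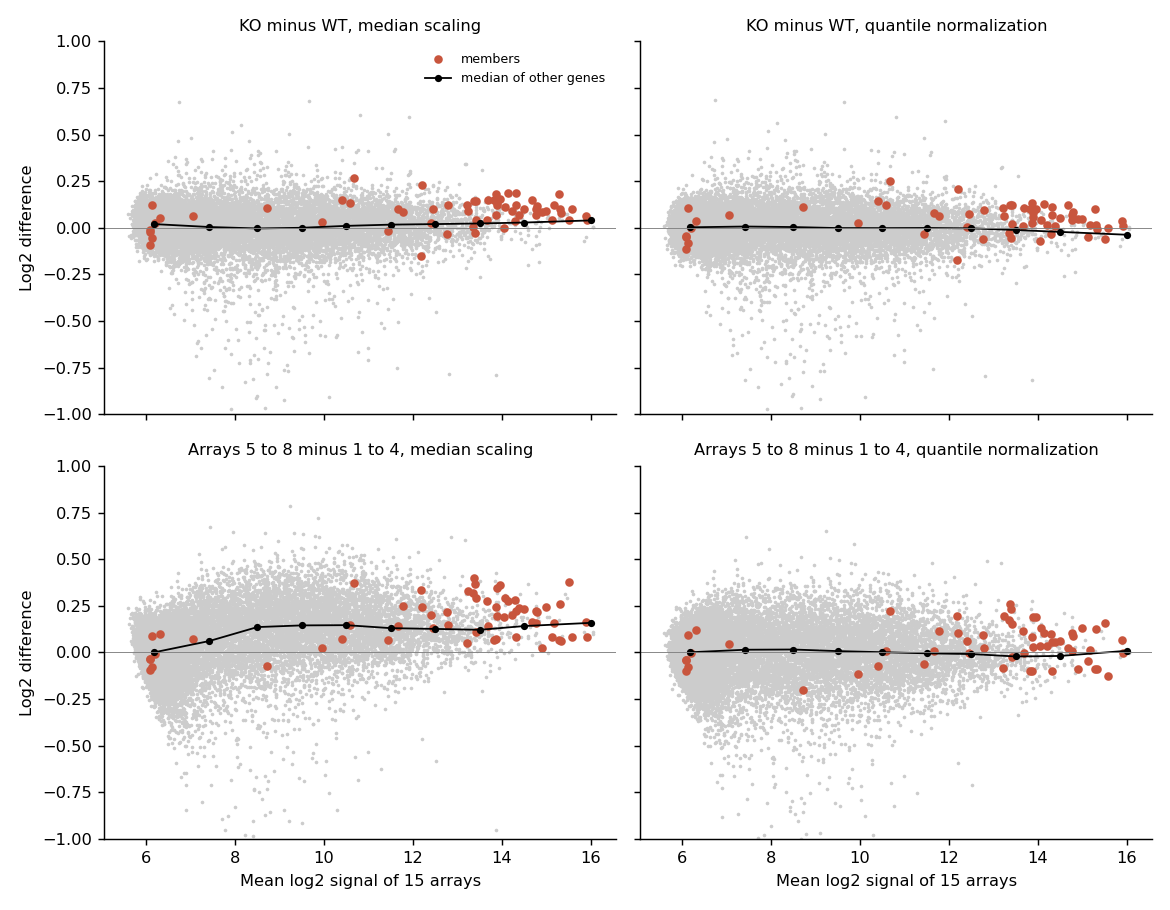
Log2 difference of every gene against its mean log2 signal over 15 arrays, for KO minus WT (top) and arrays 5 to 8 minus 1 to 4 (bottom), under median scaling (left) and quantile normalization (right), with members as large points, other genes as small points, a line for the median of other genes in bins of signal, and genes beyond 1 on either side outside the frame. In the lower left panel the line is near 0 for the dimmest genes and between 0.12 and 0.16 above 8 log2 units, with the members' median above it between 12 and 15 and below it above 15, and after quantile normalization the line is close to 0 in both comparisons.

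Compared at the same brightness, the median of the members was above that of other genes in all bins above the array median. It was below it in the dimmest, where 7 members had -0.0095 and other genes 0.020. The bins from the array median to 10 held only 1 member each, those from 10 to 12 held 3 each, and that from 12 to 13 held 6. Between 13 and 14 log2 units, 15 members had a median KO minus WT of 0.12 and 198 other genes of 0.023. Between 14 and 15, 15 members had 0.10 and 49 other genes 0.028, and above 15, 9 members had 0.081 and 11 other genes 0.040. After quantile normalization the same 3 bins gave 0.081 against -0.012, 0.048 against -0.022 and 0.011 against -0.037. In these 3 brightest bins the members' median was thus the higher on either scaling. This is given without a test since the family was chosen on this contrast. The quantile values are not a second check: each array then holds the same signals, so a rise of bright members can lower other bright genes. Above 15 log2 units, 9 members stood beside 11 other genes.

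Array-to-array deviations of the members were compared. After subtraction of the group means, the median Pearson correlation between pairs of the 53 members above background was 0.55 over the 15 arrays, and between pairs of the 258 bright genes outside the family it was 0.33. After quantile normalization the values were 0.12 and 0.0039. With the means of each array set within a group subtracted as well, they were 0.21 and 0.072 under median scaling and 0.13 and -0.0012 after quantile normalization. Much of the correlation under median scaling was thus shared with the step between the array sets. Genes outside the family were also correlated with the mean of the 53 members above background over the 15 arrays. Only the group means were subtracted there, so the step between the array sets was left in. The genes most like that mean were Elavl3, a neuronal RNA-binding protein, with a correlation of 0.97, Wipf2, Trabd, Mrpl34, a mitochondrial ribosomal protein, and Scand1. After quantile normalization they were Wipf2, with 0.90, Nsmf, Acads, Pop5 and Timm10b, so that Wipf2 alone was in both sets of 5.

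**Figure D5:**
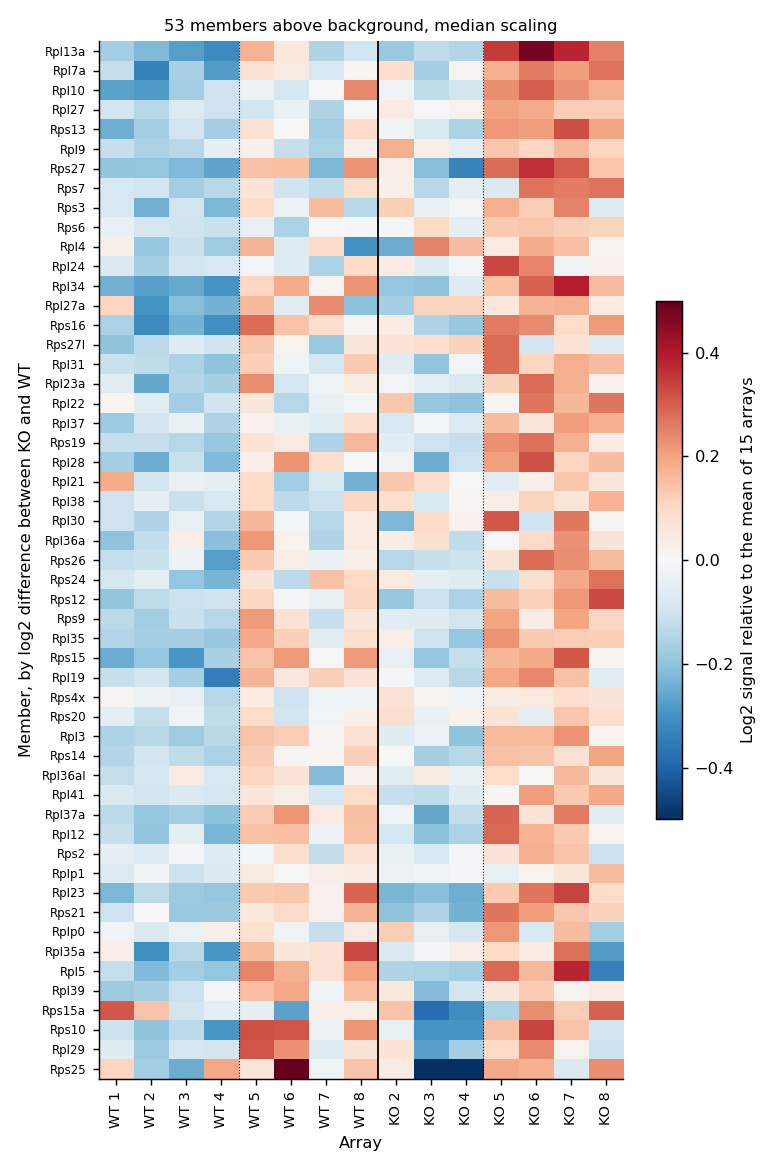
Log2 signal of the 53 members above background on each array, relative to the mean of 15 arrays, with members ordered by the KO minus WT difference and colours capped at 0.5 on either side. Arrays 1 to 4 of both genotypes are mostly blue (lower) and arrays 5 to 8 mostly red (higher), and Rps25 on KO arrays 3 and 4 and Rps15a on KO arrays 3 and 4 stand out as low.

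Other genes of the translation machinery gave a mixed picture, and none of the genes in the lists of this paragraph was called between KO and WT. Of 76 mitochondrial ribosomal protein genes, which serve the separate ribosome of the mitochondrion, 58 had a positive difference, with a median of 0.030. Of 47 initiation factor genes 24 were positive, with a median of 0.002, and of 9 elongation factor genes 7, with a median of 0.045. Of 45 ribosome biogenesis genes 24 were positive, with a median of 0.011, and of 9 genes of RNA polymerase I, which makes the ribosomal RNA precursor, 4, with a median of -0.014. Initiation, biogenesis and polymerase genes thus lay near the median of all genes. The oxidative phosphorylation genes, 66 of 73 positive with a median of 0.070 and of 0.051 after quantile normalization, lay nearest to the family. Of 36 proteasome genes 22 were positive, with a median of 0.017, and of 8 chaperonin subunits 5, with a median of 0.036.

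Ribosomal proteins outside the rule were also measured. Fau, whose product is processed to a 40S protein, had a log2 difference of 0.18, and Rps3a1, of the 40S subunit, of 0.042. The like-named paralogs Rpl22l1 and Rpl7l1 had 0.073 and -0.017. For responses known to follow from an imbalance of ribosomal proteins, 9 of 13 measured p53 targets were positive, with a median of 0.027, and 9 of 14 genes of the integrated stress response, with a median of 0.019, and 0 of either list were called in limma. Of the p53 targets 2 had an unadjusted p under 0.05 and were higher in KO, and of the stress response genes 3 were higher and 1 lower, beside 3.06% of all genes higher and 2.63% lower.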

How the data were processed

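RNA of whole P1 cerebella was amplified and biotin-labelled by the authors and hybridized to 15 arrays, 1 per sample, described as biological replicates. Probe signals were extracted with GenomeStudio. The authors deposited a table of signal intensity for 25697 probes, without normalization between arrays, and a log2 table of the same probes. The log2 values the authors deposited equal the median-scaled log2 of the intensity table to within 6.2e-05. Array medians of intensity were 97.3 to 122.9. Precision is set by the number of arrays.

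The log2 of each intensity was taken and every array shifted to the same median, as in the study's methods. The platform annotation gave 1 symbol for 23978 probes, several for 0 and none for 1719, and 23962 were updated through Entrez identifiers against GRCm38.p6. The brightest probe stood for its gene. KO and WT were compared in limma 3.58.1 (R 4.3.3, lmFit and eBayes, 2-sided) over all 16593 genes, and the array sets with genotype in the model. Groups came from the labels. P-values measure the spread among these samples. The script was tested on simulated data. Family values are means over members per array, without a test. Promoters and figures used Python 3.11.15.

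Members and lists were chosen with earlier results of these data known. Named members were those past the threshold, the 5 highest and 5 lowest differences at least 1 above the array median, those on the X chromosome, those with probes over 0.3 apart, and paralogs with a final l. Alternatives were quantile normalization, no scaling, normexp with an offset of 50, the deposited log2 table, a filter on dim probes, the mean of probes, blocks, covariates, eBayes settings, subsets of members and leaving out each array. Bright-gene scaling, the array set comparison, leaving out members near background and the array set block with quantile normalization were added after seeing the data.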

Additional observations from a re-analysis of the deposited data

How the results depend on the processing

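The family mean difference between KO and WT, 0.082, kept its sign in all 17 alternatives, at 0.040 to 0.093, and without any single array, at 0.064 to 0.104. Of these alternatives, the eBayes settings leave every difference unchanged, and the deposited log2 table equals the median-scaled values to within 6.2e-05. Neither could change a sign. No member was called in any alternative or without any single array. In the alternatives 46 to 53 members were positive, and 49 to 56 without an array. The step between array sets moved: in place of 30 members, 6 were called after quantile normalization, 6 without scaling, 10 with scaling on other bright genes, 11 in WT arrays alone and 8 in KO arrays alone, and the family mean of 0.17 became 0.040, 0.013 and 0.034 under the first 3. Of all genes 4.38% were then called higher and 5.3% lower, 2.12% and 20.9%, 3.99% and 19.2%, 6.92% and 1.93%, and 4.04% and 1.57%, in the same order, and of the members 5 higher and 1 lower, 2 and 4, 7 and 3, 11 and 0, and 8 and 0. The median of all genes in that comparison was 0.052 under median scaling, -0.10 without scaling and -0.081 with bright-gene scaling. Subsets of genotype hold fewer arrays; for the scalings the cause was not tested. Without single arrays 27 to 31 members were called, with a mean of 0.16 to 0.18.

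Of 18 named members, 14 kept their sign throughout. Rpl29 turned to 0.020 with the mean of its probes and ranged from -0.075 to 0.0099 without single arrays. Rps10 ranged from -0.086 to 0.020 without single arrays. Rps15a turned to 0.19 in arrays 5 to 8, to 0.11 with Xist as covariate and to 0.027 with the replicate block, and ranged from -0.066 to 0.046. Rpl39 turned to 0.012 with normexp, to 0.031 in arrays 1 to 4 and to 0.0013 with Ttr as covariate, and ranged from -0.028 to 0.034. The lowest adjusted p of a named member in any alternative was 0.148 in limma.

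WT and KO arrays share the numbers 2 to 8, but the numbers did not pair them: of 7 pairs 3 had a correlation of deviations over 0.1, from -0.20 to 0.39, and 1 KO array was closest to its own number. With the replicate block the family mean difference was 0.075, 52 members were positive and 0 were called. Signals near background limit 8 members, and an error of 0.05 to 0.13 log2 units limits the others, against a median difference of 0.089.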
